A study of Mus musculus with 8 samples.

Results

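YAP1 and TAZ are transcriptional coactivators that the kinases LATS1 and LATS2 keep out of the nucleus. Once in the nucleus they bind TEAD transcription factors and switch on a set of genes that serves in many tissues as a readout of Hippo pathway activity. The CCN genes and the angiomotin and kinase adaptors that feed back on the pathway are part of that readout, and the genes described here are 10 others. *Ankrd1*, *Myof*, *Axl*, *Crim1*, *F3*, *Nt5e*, *Nuak2*, *Fjx1*, *Dock5* and *Asap1* code for a nuclear and muscle filament protein, membrane proteins, receptors, kinases and regulators of small GTPases. They were looked up by symbol, and all 10 of them were found among the 24341 genes of the table of FPKM, which scale sequenced fragments by transcript length and library size. The 10 genes are known targets, and they were chosen from earlier results of these same libraries, in which the genotype comparison was already known. Their differences between genotypes are therefore given as a description, without a test.

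Each library is the total RNA of a single E11.0 pancreas bud. The 5 WT buds (genotype WT) were compared with 3 *Lats1/2*PanKO buds (genotype Pdx1Creearly;Lats1f/f;Lats2f/f), all of strain CD1 per the labels and at about 40 somites. Cre recombinase follows the *Pdx1* promoter, so both kinases are deleted in pancreatic epithelial progenitors and not in the surrounding cells. Mesenchyme was pulled off by hand, and the methods describe the comparison tissue in general as WT or heterozygous littermates. What the deletion does to these targets at E11.0 was the question.

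The deleted genes were examined first. *Lats1* was at 16.6, 15.8, 15.7, 14.1 and 15.6 FPKM in WT buds 1 to 5 and at 12.3, 13.8 and 10.1 FPKM in *Lats1/2*PanKO buds 1 to 3, and *Lats2* was at 14.3, 14.5, 14.0, 14.7 and 11.6 against 13.4, 12.3 and 11.1 FPKM. *Lats1* was lower in every *Lats1/2*PanKO bud, whereas the *Lats2* groups overlapped, and coverage of single exons was not analysed here. The table carries no counts, but the steps between low values put 1 fragment on a transcript of 1000 bases at 0.0992 to 0.108 FPKM in 7 libraries and at 0.132 FPKM in WT bud 5, the shallowest. Markers of cell types were summed in each bud to see what tissue had been collected. The 10 epithelial markers (*Krt18* the most abundant) summed to between 177 and 244 FPKM in WT and between 371 and 902 FPKM in *Lats1/2*PanKO buds. The 12 mesenchymal markers (*Barx1* the most abundant) summed to between 591 and 797 FPKM against 274 to 650 FPKM. *Barx1* alone, at means of 334 FPKM in WT and 200 FPKM in mutant buds, made up a large part of these sums. The 8 endothelial markers summed to between 107 and 166 FPKM against 73.2 to 116 FPKM. Pancreatic progenitor markers such as *Sox9* were present in each bud, as were markers of the tissues around the epithelium. *Sox9*, at means of 29.0 FPKM in WT and 74.4 FPKM in mutant buds, is also listed by the paper as a known TEAD target. The epithelial marker *Krt19* is among the genes nearest to *Ankrd1* given below. Higher epithelial and progenitor sums are therefore not a measure of the amount of epithelium alone. *Lats1/2*PanKO bud 3 had the highest epithelial sum and the lowest mesenchymal and endothelial sums of all 8 buds. In such bulk samples fewer cells of a type and less RNA per cell cannot be told apart.

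**Figure D1:**
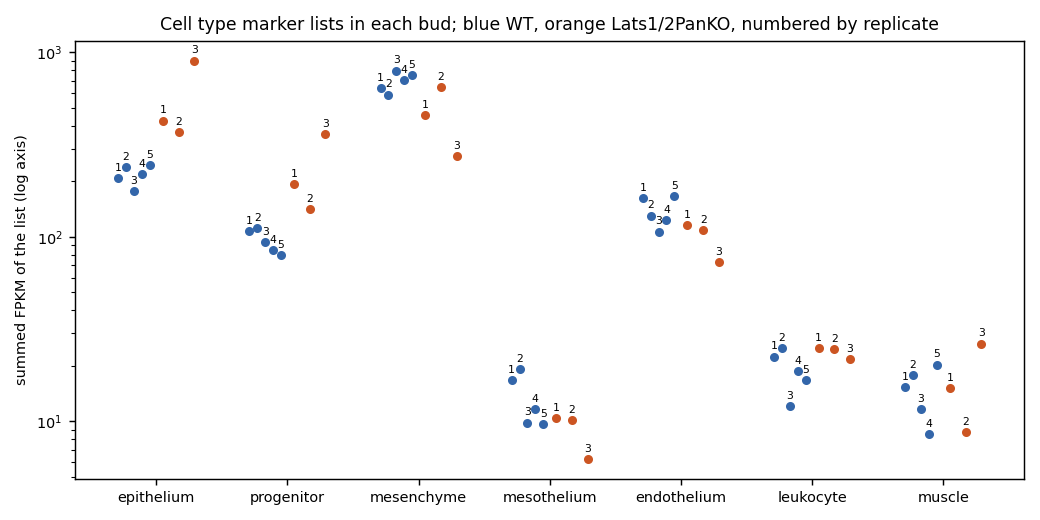
Summed FPKM (log axis) of 7 cell type marker lists on the x axis, with 1 point for each bud, blue for WT and orange for Lats1/2PanKO, numbered by replicate. Epithelial and progenitor sums of the 3 Lats1/2PanKO buds lie above those of the 5 WT buds, and Lats1/2PanKO bud 3 has the lowest mesenchymal sum, 274 FPKM.

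The 10 targets did not move as a block. In *Ankrd1* and *Myof* the lowest *Lats1/2*PanKO value exceeded the highest WT value, which makes 2 of 10 genes, where 4.46% of all 13777 tested genes did the same. *Crim1* was the 1 gene of 10 in which every *Lats1/2*PanKO bud lay below every WT bud, as did 3.06% of the tested genes. The groups overlapped in *Axl*, *F3*, *Nuak2*, *Fjx1*, *Dock5*, *Asap1* and *Nt5e*. By mean of log2(FPKM + 1), 6461 of all 13777 tested genes were higher in *Lats1/2*PanKO buds and 7316 were lower. That is the background of the splits given here and below. Of the 9 members that passed the minimum mean of 0.5 FPKM, 5 had a higher and 4 a lower mean of log2(FPKM + 1) in *Lats1/2*PanKO buds. Their median difference on that scale was 0.32, beside -0.01 over all tested genes. The median was 0.09 without *Lats1/2*PanKO bud 3 and 0.17 without WT bud 5. Nothing is read from these counts, since the genotype comparison was among the reasons for choosing the genes.

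**Figure D2:**
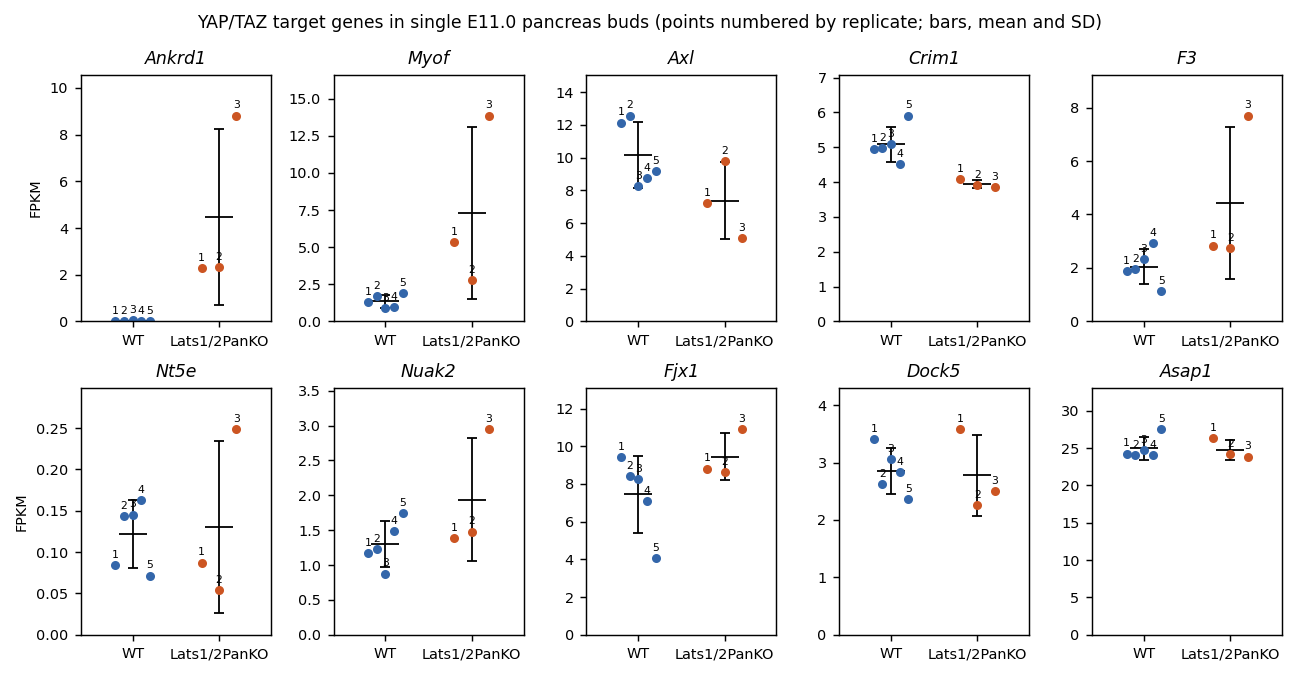
FPKM (y axis, a scale of its own in each panel) of the 10 target genes in single buds, 5 WT in blue and 3 Lats1/2PanKO in orange, numbered by replicate, with bars for mean and SD. The 3 Lats1/2PanKO points stand clear above WT in Ankrd1 and Myof and clear below WT in Crim1, and bud 3 is the highest point in Ankrd1, Myof, F3, Nt5e, Nuak2 and Fjx1.

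*Ankrd1* encodes an ankyrin repeat protein known best from heart and skeletal muscle, where it sits at the sarcomere and in the nucleus and responds to mechanical load. It lies on the minus strand of chromosome 19 of GRCm38, from 36111965 to 36119844, with 9 exons in its longest coding transcript. WT buds 1, 2, 4 and 5 were listed at 0 FPKM and WT bud 3 at 0.0619 FPKM. *Lats1/2*PanKO buds 1, 2 and 3 were at 2.29, 2.31 and 8.81 FPKM. By the steps of the low values, the WT bud above 0 held about 1.16 fragments of this transcript, and the *Lats1/2*PanKO buds about 43.4, 46.5 and 173. The WT level is thus at the limit of detection. The difference of mean log2(FPKM + 1), 2.23 (limma standard error 0.33), depends on the 1 FPKM that is added and becomes 5.08 with 0.1 FPKM. That standard error pools both groups, so it does not show the wider spread of the mutant buds. On the same scale *Lats1/2*PanKO buds 1 to 3 lay 1.70, 1.71 and 3.28 above the WT mean. No ratio of means is given, because nearly all WT values are 0. Without *Lats1/2*PanKO bud 3 the difference was 1.71.

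Because *Ankrd1* went from nearly nothing to clear expression, its promoter is shown. The sequence is the RefSeq window of 250 bases before the transcription start, chr19:36119845-36120094 of GRCm38.p6, minus strand, read in the direction of the gene, with the letters GGAATG, the core that TEAD factors recognize, in capitals.

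Ankrd1: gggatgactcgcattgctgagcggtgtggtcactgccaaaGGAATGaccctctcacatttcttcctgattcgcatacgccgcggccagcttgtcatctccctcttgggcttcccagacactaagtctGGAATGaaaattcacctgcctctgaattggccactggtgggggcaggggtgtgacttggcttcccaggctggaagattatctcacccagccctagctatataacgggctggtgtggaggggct

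The core occurred at 2 places, from -210 to -205 and from -123 to -118 relative to the start. GGAATG or its complement CATTCC was found in 12.6% of 32536 RefSeq upstream windows of this length, and at 2 or more places in 1.02%. Of the 10 members, 6 had a window in the table (*Ankrd1*, *Myof*, *Axl*, *Crim1*, *F3* and *Nt5e*). The core was also present once upstream of *Axl* and once upstream of *Crim1*, whose means were lower in *Lats1/2*PanKO buds, and these stretches of 30 bases are printed for comparison (chr7:25788949-25788978, minus strand, and chr17:78200157-78200186, plus strand).

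Axl: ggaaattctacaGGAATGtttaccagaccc

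Crim1: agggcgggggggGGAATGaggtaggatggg

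In the windows of *Myof*, *F3* and *Nt5e* these letters were not found. The *F3* window held the AP-1 letters TGANTCA at 2 places, from -146 to -140 and from -135 to -129, against 6.73% of all windows with at least 1 match on either strand and 0.338% with 2 or more. AP-1 factors often occupy the same enhancers as TEAD. A match is a stretch of letters and not evidence of binding.

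*Myof* encodes myoferlin, a ferlin that takes part in membrane fusion and repair. It lies on the minus strand of chromosome 19 from 37899036 to 38043577 with 53 exons. Its values were 1.29, 1.70, 0.918, 0.966 and 1.89 FPKM in WT buds and 5.33, 2.78 and 13.8 FPKM in *Lats1/2*PanKO buds. Each of the latter was higher than the highest WT value, by a small margin in bud 2 and a wide one in bud 3. The WT mean was 1.35 ± 0.433 FPKM (SD, n = 5). The *Lats1/2*PanKO mean of 7.32 ± 5.79 FPKM (SD, n = 3) stood to it in a ratio of 5.42, which was 3.00 when *Lats1/2*PanKO bud 3 was dropped. The log2(FPKM + 1) difference was 1.61 (standard error 0.38).

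*F3* encodes tissue factor, the membrane receptor that starts blood coagulation. On the plus strand of chromosome 3, from 121723537 to 121735052, it has 6 exons. It was at 1.90, 1.95, 2.32, 2.92 and 1.15 FPKM in WT buds and at 2.84, 2.76 and 7.69 FPKM in *Lats1/2*PanKO buds. *Lats1/2*PanKO buds 1 and 2 lay just under the highest WT bud, so only bud 3 stood apart. The ratio of means was 2.17, and 1.37 without that bud, and the log2(FPKM + 1) difference of 0.74 (standard error 0.30) became 0.35.

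*Nuak2* encodes a kinase related to AMPK that acts on actomyosin contractility. It lies on the plus strand of chromosome 1, from 132316125 to 132333488. WT buds were at 1.17, 1.23, 0.877, 1.48 and 1.75 FPKM and *Lats1/2*PanKO buds at 1.38, 1.48 and 2.95 FPKM. Again bud 3 was above WT while buds 1 and 2 lay inside the WT range, and the log2(FPKM + 1) difference of 0.32 (standard error 0.20) was 0.09 without bud 3. *Fjx1*, on the minus strand of chromosome 2 from 102449366 to 102451792, is a gene of 1 exon that encodes the mammalian relative of the fly kinase Four-jointed. Its WT values were 9.41, 8.41, 8.25, 7.09 and 4.06 FPKM, against 8.82, 8.63 and 10.9 FPKM. WT bud 5 was low, and without it the log2(FPKM + 1) difference went from 0.34 (standard error 0.22) to 0.17.

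*Axl* encodes a receptor tyrosine kinase of the TAM family, which binds GAS6 and is widely expressed in mesenchymal and endothelial cells. It lies on the minus strand of chromosome 7 from 25756500 to 25788733. WT buds were at 12.1, 12.6, 8.27, 8.74 and 9.17 FPKM and *Lats1/2*PanKO buds at 7.24, 9.80 and 5.08 FPKM. *Lats1/2*PanKO buds 1 and 3 lay below WT, and bud 2 lay within it. The log2(FPKM + 1) difference was -0.44 (standard error 0.20), or -0.23 without bud 3. *Crim1* encodes a transmembrane protein with cysteine-rich repeats that binds BMPs. It lies on the plus strand of chromosome 17 from 78200248 to 78418152. It was at 4.96, 4.97, 5.10, 4.51 and 5.91 FPKM in WT buds and at 4.08, 3.91 and 3.86 FPKM in *Lats1/2*PanKO buds. These groups did not overlap, and the *Lats1/2*PanKO values lay close together. WT buds averaged 5.09 ± 0.508 FPKM (SD, n = 5), whereas the average with both kinases deleted was 3.95 ± 0.113 FPKM (SD, n = 3). Its log2(FPKM + 1) difference was -0.29 (standard error 0.10), and dropping any 1 bud kept it from -0.33 to -0.25. The mesenchymal and endothelial sums given above were lowest in *Lats1/2*PanKO bud 3, as was *Axl*, whereas *Crim1* was nearly level over the 3 mutant buds. In *Lats1/2*PanKO bud 2 these sums, 650 and 109 FPKM, lay within the WT ranges. The part of these sums in either result was not tested.

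*Dock5*, on the minus strand of chromosome 14 from 67751928 to 67933572, encodes an exchange factor for Rac. Its values were 3.41, 2.63, 3.06, 2.83 and 2.36 FPKM in WT and 3.58, 2.26 and 2.50 FPKM in *Lats1/2*PanKO buds. *Asap1*, on the minus strand of chromosome 15 from 64086840 to 64382919, encodes a GTPase-activating protein for Arf that works at focal adhesions. It was at 24.3, 24.0, 24.8, 24.1 and 27.6 FPKM in WT and at 26.3, 24.1 and 23.8 FPKM in *Lats1/2*PanKO buds. In both genes the groups overlapped, and the log2(FPKM + 1) differences of -0.04 (standard error 0.15) and -0.01 (standard error 0.07) changed sign under 4 and 6 of 15 alternatives. *Nt5e*, on the plus strand of chromosome 9 from 88327609 to 88372089, encodes the surface nucleotidase that turns AMP into adenosine. It was at 0.0838, 0.144, 0.145, 0.163 and 0.0716 FPKM in WT and 0.0873, 0.0543 and 0.249 FPKM in *Lats1/2*PanKO buds. These levels stand for about 2.16 to 9.68 fragments per bud, too few for a small difference to be detectable. A rise to the 43.4 or more fragments that *Ankrd1* had in mutant buds was not seen. The gene *Nt5e* was left out of the fit by the minimum mean.

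**Figure D3:**
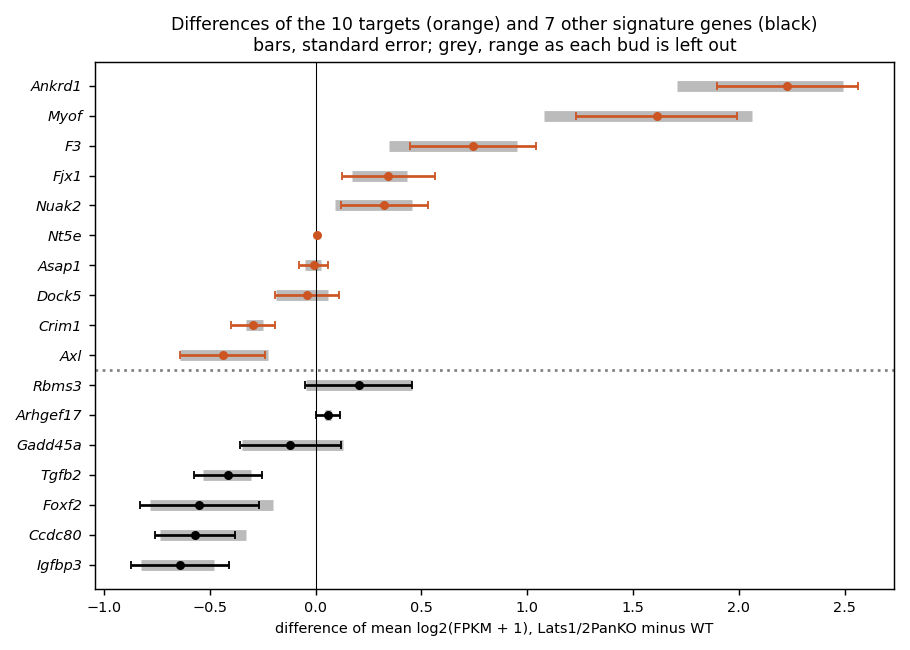
Difference of mean log2(FPKM + 1), Lats1/2PanKO minus WT (x axis), for the 10 targets (orange) and 7 other signature genes (black). Bars are limma standard errors pooled over both groups (none for Nt5e, which was not fitted). Grey bands give the range as each bud is left out. Ankrd1 at 2.23 and Myof at 1.61 stand apart, 4 targets lie below 0, and 5 of the 7 other genes are below 0.

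Because FPKM are scaled to length, levels can be compared between genes. In WT buds the order of mean FPKM was *Asap1* (24.9), *Axl* (10.2), *Fjx1* (7.44), *Crim1* (5.09), *Dock5* (2.86), *F3* (2.05), *Myof* (1.35), *Nuak2* (1.30), *Nt5e* (0.122) and *Ankrd1* (0.0124). The WT ranges of *Asap1* and *Axl*, of *Crim1* and *Dock5*, of *Nuak2* and *Nt5e*, and of *Nt5e* and *Ankrd1* did not overlap. Other neighbours in the order overlapped. In *Lats1/2*PanKO buds *Ankrd1* had a mean of 4.47 ± 3.76 FPKM (SD, n = 3), above the mean of 3.95 FPKM for *Crim1*, but 2.30 FPKM without bud 3, below the 4.00 FPKM of *Crim1* in the same buds. The order of those means therefore turned on that bud. The 2 genes nearest to detection limits in WT therefore parted, since *Nt5e* was at 0.130 ± 0.104 FPKM (SD, n = 3). Whether the members varied together with the library was not tested. *Lats1/2*PanKO bud 3 held the highest of 8 values in 6 of 10 members and the lowest in 3, while over all tested genes it held the highest value in 20.5% and the lowest in 20.6%. The epithelial sum was highest in the same bud, and its part in these levels was not tested. *Ankrd1* is also a gene of heart muscle. The 10 cardiac and smooth muscle markers summed to between 8.48 and 20.2 FPKM in WT buds. In *Lats1/2*PanKO buds 1 to 3 they summed to 15.1, 8.76 and 26.4 FPKM. No marker was at 0 in all buds, but *Myh6*, *Myh7*, *Tnnt2* and *Myh11* were under the minimum mean of 0.5 FPKM. *Tagln* was the most abundant, at means of 4.08 FPKM in WT and 4.31 FPKM in mutant buds. From E11.5 on, the paper reports its protein in mutant epithelium by immunostaining, whereas the values here are RNA at E11.0. Since the list holds smooth muscle as well as cardiac markers, the muscle sum is not a measure of heart tissue alone. It was lowest of the 3 in bud 2 and in bud 3 the highest of all 8 buds. Its part in the *Ankrd1* levels was not tested.

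The members belong to a widely used signature of YAP/TAZ targets, and 7 further genes of that signature outside the CCN and feedback genes were compared from the same fit. These were *Igfbp3*, *Foxf2*, *Gadd45a*, *Ccdc80*, *Arhgef17*, *Tgfb2* and *Rbms3*, which in embryos are expressed largely in mesenchyme or broadly. Of the 7, 2 had a higher and 5 a lower mean after deletion, and the median log2(FPKM + 1) difference was -0.41. limma called 0 at a Benjamini-Hochberg adjusted p under 0.05, where 0.0145% of all tested genes were called (*Clu* and *Rassf9*). An unadjusted p under 0.05 was found for 3, all lower, beside 11.3% of all tested genes in either direction, 6.29% higher and 4.99% lower, and the same shares are the background of the lists that follow. As single buds were left out the split ran from 1 to 3 higher, with *Gadd45a* and *Rbms3* changing sign. *Ccdc80*, a secreted matrix protein, was at 11.5, 10.9, 8.24, 8.37 and 10.1 FPKM in WT and at 6.99, 8.11 and 4.20 FPKM in *Lats1/2*PanKO buds, without overlap (difference -0.57, limma adjusted p = 0.322). It was the 1 of 7 with every mutant bud below every WT bud, beside 3.06% of all tested genes. *Igfbp3*, an IGF binding protein, was at a mean of 54.8 FPKM in WT and 34.3 FPKM in mutant buds (limma adjusted p = 0.351), and *Tgfb2*, a TGF-beta ligand, at 26.5 and 19.5 FPKM (adjusted p = 0.391 from limma). Over the 16 tested genes of members and these 7 together, 7 were higher and 9 lower, with a median difference of -0.02.

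The regulators above the targets were compared in the same way, for 22 genes of Hippo kinases and adaptors, YAP1/TAZ, TEAD factors, and CCN and feedback targets. Their means were higher in 13 and lower in 9, with a median log2(FPKM + 1) difference of 0.09, and limma called 0 (6 at an unadjusted p under 0.05, of which 5 higher). The coactivators themselves were at similar levels in both genotypes. *Yap1* had means of 53.5 and 49.3 FPKM in WT and mutant buds (limma adjusted p = 0.569), and *Wwtr1*, which encodes TAZ, 10.8 and 10.1 FPKM (adjusted p = 0.825 from limma). Among their DNA-binding partners, *Tead2* was the most abundant, at 153 and 148 FPKM, followed by *Tead1* at 26.6 and 28.8 and *Tead3* at 12.4 and 10.8 FPKM (limma adjusted p between 0.681 and 0.887 for the 3). *Tead4* had the lowest level, 2.20, 2.60, 2.59, 1.84 and 2.21 FPKM in WT against 4.20, 3.20 and 8.59 FPKM in *Lats1/2*PanKO buds. The groups of *Tead4* did not overlap (difference 0.86, or 0.51 without *Lats1/2*PanKO bud 3, standard error 0.24, adjusted p = 0.267 from limma). Smallest in p among the 22 were *Ctgf*, a CCN gene, *Wwc1*, which encodes the upstream adaptor KIBRA, and *Amotl2*. Their groups did not overlap either. *Ctgf* had means of 3.63 and 10.7 FPKM (adjusted p = 0.109 from limma). *Wwc1* had means of 10.2 and 21.8 FPKM (adjusted p = 0.212 from limma), and *Amotl2* 32.1 and 48.7 FPKM (adjusted p = 0.222 from limma). *Cyr61*, the other classical CCN target and named here after its values were seen, was at 6.30, 5.73, 3.83, 3.88 and 33.7 FPKM in WT against 9.85, 10.8 and 22.9 FPKM (difference 0.80, adjusted p = 0.681 from limma). WT bud 5 exceeded every mutant bud, and the difference was 1.31 without it and 0.44 without *Lats1/2*PanKO bud 3.

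Close relatives of the members gave a comparison for genes of like function that were not selected as targets. Of 17 listed relatives, 16 were in the table and 11 were tested. Their median log2(FPKM + 1) difference was -0.05, with 4 higher and 7 lower after deletion. limma called 0, and 1 had an unadjusted p under 0.05. That gene was *Asap3*, a relative of *Asap1*, with 3.56, 4.17, 2.88, 2.44 and 3.41 FPKM in WT and 6.74, 5.56 and 14.3 FPKM in *Lats1/2*PanKO buds. Its groups did not overlap, and the difference was 1.11 (standard error 0.26, adjusted p = 0.196 from limma). It was the 1 of 11 tested relatives with every mutant bud above every WT bud, beside 4.46% of all tested genes. *Asap2* overlapped, with means of 15.7 and 16.1 FPKM (adjusted p = 0.930 from limma). *Dysf*, a ferlin like *Myof* that repairs muscle membranes, had means of 6.01 and 5.94 FPKM (adjusted p = 0.983 from limma). The TAM receptors *Tyro3* and *Mertk* had means of 8.33 and 2.37 FPKM in WT and 7.23 and 2.24 FPKM in mutant buds (limma adjusted p = 0.603 and 0.946). *Nuak1* was at 5.05 and 5.94 FPKM (adjusted p = 0.753 from limma), a level above that of *Nuak2* in each bud of both genotypes, and *Dock1* was at 49.2 and 46.2 FPKM (adjusted p = 0.834 from limma) where *Dock5* was at 2.86 and 2.78 FPKM. *Dock4* was at 6.72 and 5.96 FPKM (adjusted p = 0.695 from limma). *Ankrd2*, the nearest relative of *Ankrd1*, was under the minimum mean for testing. It was listed at 0.204, 0.209, 0.317, 0 and 0 FPKM in WT and at 0.738, 0.591 and 0.998 FPKM in *Lats1/2*PanKO buds, so all 3 lay above WT at a low level. Differences between a member and its relative were not tested.

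**Figure D4:**
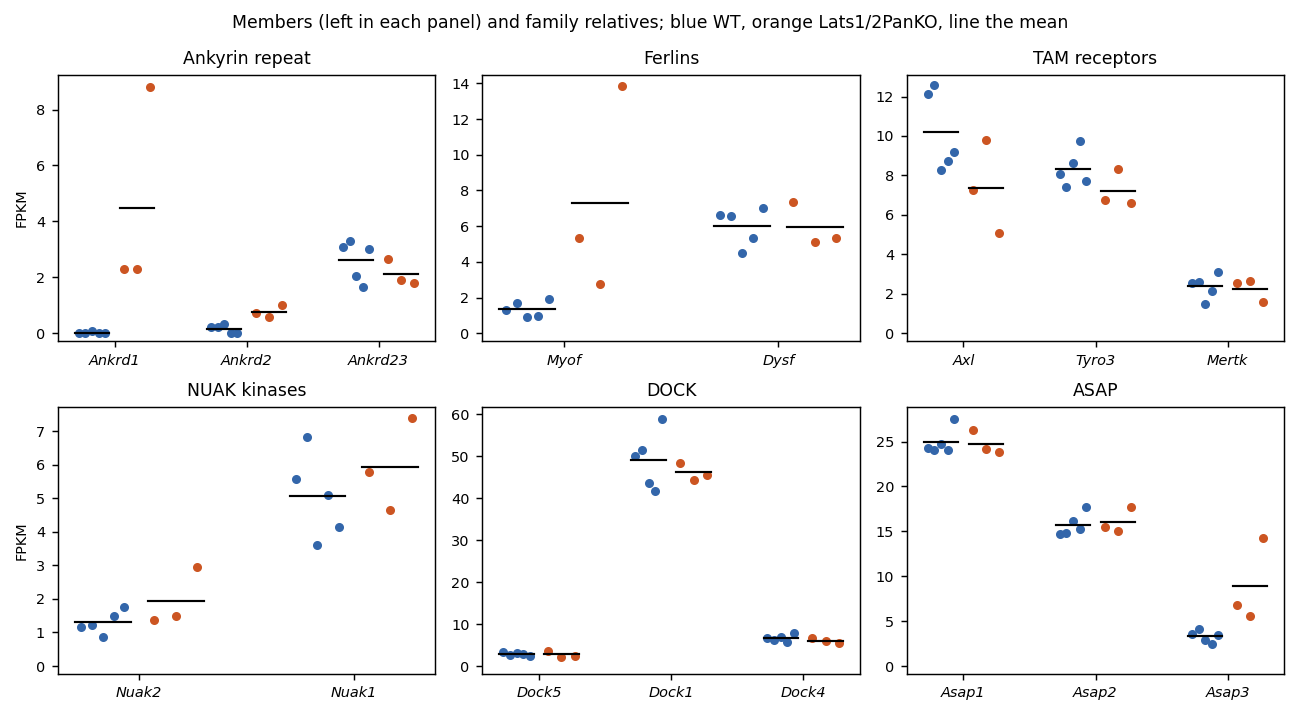
FPKM (y axis) of 6 members and their family relatives (x axis), the member at the left of each panel, with 1 point for each bud, blue for WT and orange for Lats1/2PanKO, and a line at the mean. Ankrd1, Myof and Asap3 have all 3 Lats1/2PanKO points above WT, Ankrd2 does so below 1 FPKM, and the other relatives overlap.

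Ligands, substrates and pathway neighbours of the members were compared as well. Of 31 listed genes 24 were tested, 8 of them higher and 16 lower, with a median log2(FPKM + 1) difference of -0.11. limma called 0, and 5 had an unadjusted p under 0.05, all lower. For the receptor AXL, the ligand gene *Gas6* had means of 1.42 and 1.50 FPKM (adjusted p = 0.941 from limma), whereas *Pros1*, which encodes protein S, a TAM ligand and anticoagulant, was at 6.58, 6.38, 5.12, 5.74 and 5.36 FPKM in WT and 5.09, 4.45 and 3.56 FPKM in *Lats1/2*PanKO buds (difference -0.35, standard error 0.13, adjusted p = 0.351 from limma). *Pros1* was the 1 gene of the 24 whose groups did not overlap. Over all tested genes, 3.06% had every *Lats1/2*PanKO bud below every WT bud. *Tfpi*, the inhibitor of the tissue factor pathway, was at 24.5 and 20.6 FPKM (adjusted p = 0.351 from limma). *Fat4* and *Dchs1*, which encode protocadherins of the kind that Four-jointed modifies in flies, were at 15.5 and 12.9 FPKM and at 23.1 and 17.9 FPKM (adjusted p = 0.605 and 0.380 from limma). *Entpd1*, whose product makes the AMP that the *Nt5e* product uses, was at 1.88 and 1.36 FPKM (adjusted p = 0.636 from limma).

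Genes that follow *Ankrd1* most closely over the 8 buds were found by the mean absolute difference between their deviations from the WT mean of log2(FPKM + 1) and those of *Ankrd1*. The 10 nearest among 13776 tested genes outside *Ankrd1*, members left out, were *Mal2*, *Clu*, *D630045M09Rik*, *Krt19*, *BC021891*, *Akr1cl*, *Tinagl1*, *Lurap1l*, *Eps8l2* and *Spp2*, at mean differences of 0.14 to 0.28, where the median over all genes was 0.92. All had higher values in each *Lats1/2*PanKO than in each WT bud, as the measure favors. *Mal2*, which encodes a protein of apical transport, went from a mean of 0.519 to 7.55 FPKM (4.05 FPKM without bud 3), and *Krt19*, a keratin of simple epithelia that is also among the epithelial markers used here, from 3.42 to 25.3 FPKM (14.4 FPKM without bud 3). Unlike *Ankrd1*, *Clu* was abundant already in WT, at 16.9 FPKM, with 91.5 FPKM in *Lats1/2*PanKO buds. Of the members, *Myof* came nearest, at rank 21 and a mean difference of 0.37, and of the CCN genes *Ctgf* was at rank 46 and *Cyr61* at rank 12111. *F3* was at rank 288 and *Nuak2* at rank 1245, and the other tested members were at rank 3775 or lower. This likeness is over 8 buds with 1 large contrast between genotypes and describes that contrast more than any finer pattern.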

How the data were processed

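Total RNA of 8 single pancreas buds was analysed from the 1 deposited table. The authors trimmed reads with cutadapt 1.12, aligned them with TopHat 2.1.0 to GRCm38/mm10 and computed FPKM per gene and library with Cufflinks/Cuffdiff 2.2.1. Their methods state quantile normalization, which the deposited FPKM columns do not show, and these were used as deposited. Groups and replicate numbers came from the sample titles. Because FPKM are not counts, the fit was made by limma 3.58.1 (R 4.3.3) after log2 transformation with 1 FPKM added and with a trended prior, restricted to genes whose mean reached 0.5 FPKM. Benjamini-Hochberg adjustment covered all of these genes (threshold 0.05), and the code was checked on simulated data. Standard errors given with differences are those of this fit. They rest on a variance pooled over both groups and moderated by the prior, and are not a test of the members. Members, gene lists and alternatives were chosen with earlier results of these data known. Genes named are all members, the 3 with the smallest p in each list, and direct relatives and partners of members. The most abundant gene of most marker lists and the 10 nearest to *Ankrd1* are named as well. The FPKM worth of 1 fragment was the step whose multiples fitted (within 5%) the low values of 393 genes with 1 exon and at least 1500 bases in GENCODE M21, and fragments per gene used the longest coding transcript. The methods state an approximate number of reads per sample, but the aligned fragments of each library are not otherwise known. No counting interval is given. Gene starts in the table count from 0 (with 1 added, 77.1% of 7254 plus-strand genes start at the RefSeq position, against 0.234% as given), so 1 was added. Motifs were searched on both strands of RefSeq GRCm38.p6 windows. Per the methods each bud is a separate embryo. Each of these choices was varied in turn: the pseudocount (0.1), the filter (2 FPKM or none), the scaling (quantile or median-ratio), a block for replicate number, array weights, and dropping each bud.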

Additional observations from a re-analysis of the deposited data

Results flagged for a closer look

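In 8 of 96 genes examined (the compared lists and the 10 genes nearest to *Ankrd1*), the highest or lowest of the 5 WT buds lay apart from the others by more than Dixon's limit of 0.71 of the group's range, which chance exceeds in about 5% of such groups. For *Ankrd1*, at 0.0619 FPKM in WT bud 3 and 0 in the others, and for *Adora3*, at 0.0840 FPKM in WT bud 4 and at or near 0 in the others, this follows from the values at 0, since any level above 0 in a single bud passes the limit. WT bud 5 stood apart in 4 genes. It was at 27.6 FPKM for *Asap1* (next highest 24.8 FPKM), at 11.6 FPKM for *Lats2* (next lowest 14.0 FPKM), at 33.7 FPKM for *Cyr61* (next highest 6.30 FPKM) and at 4.92 FPKM for the adenosine receptor gene *Adora2a* (next highest 1.33 FPKM). *F7*, which encodes the coagulation factor that tissue factor binds, was at 0.579 FPKM in WT bud 2 (next highest 0.176 FPKM). *Krt19* was at 2.13 FPKM in WT bud 3 (next lowest 3.55 FPKM).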

How the results depend on the processing

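Precision is limited by 3 *Lats1/2*PanKO buds and by low levels of *Ankrd1* in WT and of *Nt5e* in every bud. Over all tested genes, 2 were called, against 18 with a pseudocount of 0.1, 174 with array weights and 1 with the replicate block. Leaving out single buds gave 0 to 69, with 0 without WT bud 1, 2, 3 or 5, 4 without WT bud 4, 1 without *Lats1/2*PanKO bud 1, 69 without bud 2 and 19 without bud 3. Of the pathway genes 0 were called, and 1, *Ctgf*, with array weights, while of relatives and partners 0 were called under every alternative. The median difference of the members, 0.32, was -0.0095 with a minimum mean of 2 FPKM, which leaves fewer members, 0.17 with no filter, which adds *Nt5e*, 0.11 with the replicate block and 0.14 with array weights, and 0.091 to 0.40 as single buds were left out. The cause of the last moves was not tested. Without single buds, 2 to 3 members lay above WT in every bud, the third being *F3* without WT bud 4 or *Fjx1* without WT bud 1. Under at least 1 alternative the difference changed sign in 2 of 9 members (*Dock5* and *Asap1*), 2 of 7 other signature genes (*Gadd45a* and *Rbms3*), 5 of 22 pathway genes, 3 of 11 relatives and 7 of 24 partners. Among those named with values, *Mertk* was at 0.023 with the block, 0.068 with array weights and -0.16 to 0.11 as buds were left out. *Gas6* was at -0.068, -0.078 and -0.080 to 0.19, *Dysf* at 0.014, 0.16 and -0.15 to 0.068, and *Asap2* at -0.037 to 0.072 as buds were left out. Same-numbered buds share only a number. Their deviations correlated across genes at 0.09, -0.10 and 0.07, and 2 of 3 *Lats1/2*PanKO buds were most like the WT bud of their own number. These correlations are weak and differ in sign, and no pairing is read from them.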

Other observations

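Marker lists not used above varied between buds as follows. The 7 fetal liver markers (*Ttr* the most abundant) summed to between 88.7 and 157 FPKM in WT and to between 119 and 349 FPKM in *Lats1/2*PanKO buds. The 6 red blood cell markers (*Hbb-y* the most abundant) summed to between 2620 and 15691 FPKM in WT and 7926 to 10113 FPKM in *Lats1/2*PanKO buds, the 10 macrophage and leukocyte markers in the table to between 12.1 and 25.0 FPKM and 21.6 to 24.8 FPKM, and the 6 neural markers to between 12.1 and 17.2 FPKM and 14.1 to 26.8 FPKM. The mesothelial markers, with *Wt1* the most abundant, summed to between 9.61 and 19.1 FPKM in WT and 6.24 to 10.4 FPKM in *Lats1/2*PanKO buds.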
